A study of Mus musculus with 5 samples.

Results

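Refed mice were compared with fasted mice in CCK+ cells, the epithelial cells of the small intestine that were sorted for a fluorescent reporter of Cck expression. The members of the comparison are the 3 bulk RNA-seq libraries marked as CCK cells of refed mice and the 3 marked as CCK cells of fasted mice, 6 of the 12 bulk libraries in the series. All mice were of the strain C57Bl/6J, were 6 to 8 weeks old and carried Cck-Cre together with R26-LSL-tdTomato, an allele that turns on the red protein tdTomato once Cre has acted. Fasted mice (A, B and F) had gone without food overnight, and refed mice (C, D and E) had been fasted and then fed Ensure, a liquid diet, for a time not given in the sources used here. Each mouse gave 1 library of tdTomato+ cells, called CCK+, and 1 of tdTomato- cells, called CCK-, so every group holds 3 libraries from 3 mice. The reporter marks each cell that has ever expressed Cck-Cre, which limits how closely the sort follows Cck itself. The public titles of all 4 bulk groups say CCK+, whereas the cell type labels name both sorts, and the cell type labels were used.

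Enteroendocrine cells (EECs) are scattered hormone-secreting cells of the gut epithelium, and those that make cholecystokinin release it when fat and protein arrive in the lumen, which slows gastric emptying, contracts the gallbladder and promotes satiety. Most of the surrounding epithelium consists of enterocytes, which absorb sugars, amino acids and lipids. A fast followed by a meal changes insulin, glucagon and glucocorticoid levels as well as luminal nutrients, and sterol synthesis, protein folding, ribosome production and gluconeogenesis are among the programs known to follow feeding state in many tissues.

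Values are normalized counts, the authors' gene counts divided by normalization factors, and the 3 values of a group are given in the order of mice A, B and F for fasted and C, D and E for refed. The CCK+ libraries summed to 7600394, 9868241 and 8449426 in fasted and 7849320, 7061155 and 7174860 in refed libraries. Divided by the most common value of each library, taken as the worth of 1 read, these sums imply 10799936, 8128119 and 8831963 reads in fasted and 9209033, 10277620 and 7913298 in refed libraries. Between 17183 (B) and 18855 (A) genes were above 0. Cck, the gene that named the sort, stood at 20166, 15183 and 25001 in fasted and 32592, 26039 and 14837 in refed mice, against 27.6 to 86.0 in the 6 CCK- libraries, so the sort labels held in every library. Its fasted and refed values overlapped, with a log2 fold change of 0.24 ± 0.32 (SE; limma, adjusted p = 0.762). Transcripts of the Y-linked gene Ddx3y were at 145 in fasted mouse A and at 141 and 191 in refed mice C and D, and at 0 to 1.10 in B, F and E, so 1 of 3 fasted and 2 of 3 refed mice carried them.

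Markers of 11 cell types were summed in each library. The 12 EEC markers, led by Chgb, summed to 176276, 84996 and 139237 in fasted and 217951, 275616 and 238391 in refed libraries, so that every refed library lay above every fasted one. Chgb alone was 63.9 to 78.9% of each sum. The other 11 markers summed to 52955, 30658 and 50109 in fasted and 65483, 64490 and 50347 in refed libraries, where refed mouse E lay below fasted mouse A. Of the 12 markers, 4 had refed values that were all above the fasted ones. The share of all genes with such values is not given here, so this count cannot be read as high or low. The 12 enterocyte markers, led by Anpep, summed to 275930, 445520 and 341292 in fasted and 296450, 215281 and 175792 in refed libraries, and refed mouse C lay among the fasted mice. No marker of these lists was at 0 in all 6 libraries. Fasted mouse B stood apart with the lowest EEC and the highest enterocyte sum, and its 10 highest genes took 25.1% of its counts against 15.3 to 20.5% in the other CCK+ libraries. In CCK- libraries the EEC markers summed to only 1405 to 2800. In sorted bulk cells, fewer cells of a type and less RNA per cell cannot be told apart, and the part of these marker sums in the results that follow was not tested.

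**Figure D1:**
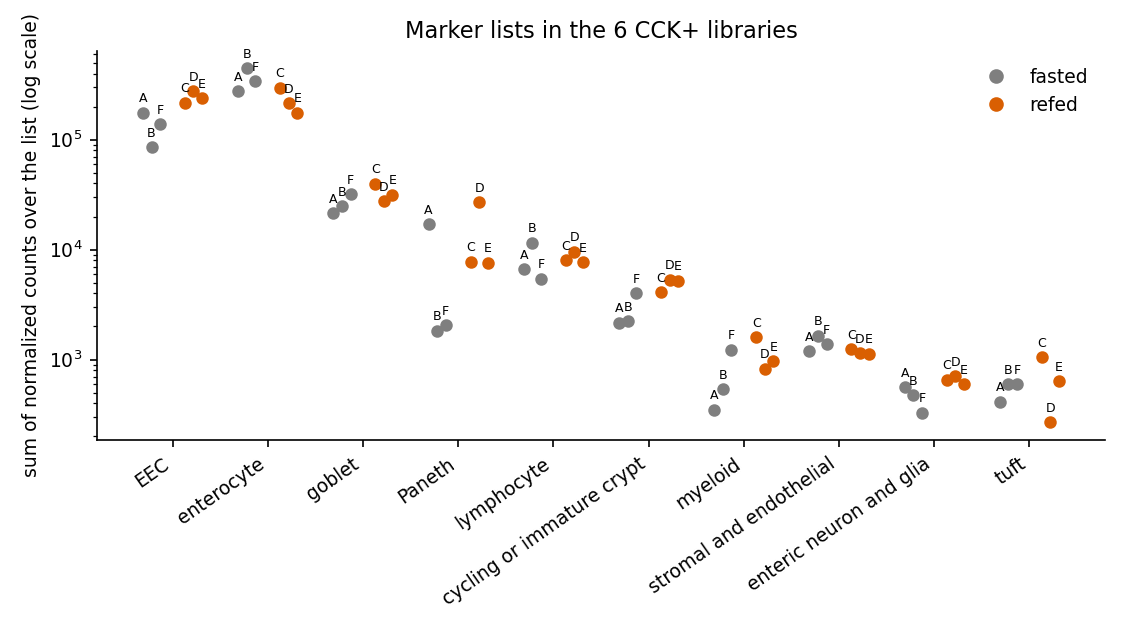
Summed normalized counts of the EEC, enterocyte and other marker lists in each CCK+ library, 1 point per mouse, fasted and refed, on a log axis. The EEC sums of the refed mice (217951 to 275616) lie above those of the fasted mice (84996 to 176276), but overlap without Chgb (50347 to 65483 and 30658 to 52955), and the enterocyte sums overlap.

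Between refed and fasted CCK+ cells 561 of 22042 genes differed, 289 higher (1.31%) and 272 lower (1.23%), by limma on log2(normalized count + 1) with Benjamini-Hochberg adjustment over all genes at 0.05. Heat shock chaperones, chaperones of the endoplasmic reticulum (ER) and enzymes of cholesterol synthesis were among the genes that rose, and Pck1, sterol exporters, single nutrient transporters such as Slc6a19 and Slc15a1, and glucocorticoid-responsive genes among those that fell. Calls favor genes whose groups lie apart, so the next counts are not separate support, and the share over all genes is not given here. Fasted and refed values did not overlap for any of the 289 and for 271 of the 272. The exception was Enpp3, an ectonucleotide pyrophosphatase singled out after its values were seen, with 3777, 8744 and 6932 in fasted and 3792, 1961 and 2509 in refed mice and a log2 fold change of -1.21 ± 0.28 (SE; limma, adjusted p = 0.0356). Enpp3 lost its call without B, F, D or E (adjusted p up to 0.223). Enpp3 also lost its call with a pseudocount of 10 (adjusted p = 0.0505) and with a Y term (adjusted p = 0.0636). The median log2 fold change over all genes was 0.01, and 3736 genes had an unadjusted p under 0.05. Fold changes on this scale understate the change of genes with low values.

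The number of calls moved with single libraries: it was 876 without A, 193 without B, 351 without F, 103 without D and 183 without E, and 507 without C. It was 850 after quantile normalization, 655 with a filter for genes with a mean of at least 10, 428 with a term for Y-linked transcripts (Y term), 119 without a mean-variance trend (without a trend), and 0 when limma was run on the 6 CCK+ libraries alone (3190 at unadjusted p < 0.05), or 47 there with the filter, which is kept wherever the 6 libraries alone are named for a list. Scaling the libraries to equal sums shifted the median of all genes to 0.20, and the split became 631 higher and 184 lower (77.4% higher), against 51.5% higher on the authors' scale. No gene of the 561 changed its sign in any of these settings.

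Genes with a mean of at least 10 were next separated by the ratio of their means in CCK+ and CCK- cells. The ratio was the mean of the 6 CCK+ libraries over that of the 6 CCK- libraries, with 1 added to each. Ratios in fasted or refed libraries were formed in the same way. CCK+-enriched genes had a ratio of at least 2 (2524 genes), and CCK--enriched genes one of at most 0.5 (730). The CCK- libraries had enterocyte sums of 487323 to 683714, above every CCK+ library. Between the limits lay 10263 shared genes, and 8525 low genes were unclassed. The CCK+-enriched class held all 12 EEC markers, but also 11 of 14 lymphocyte and 5 of 9 myeloid markers. It also held 39 of 79 cytosolic ribosomal protein genes, so membership does not name the cell type that expressed a gene. In the CCK+-enriched class 53 genes (2.1%) rose and 2 (0.0792%) fell, with a median log2 fold change of 0.40. Over all genes the shares were 1.31% higher and 1.23% lower, and over shared genes 1.96% and 2.07%. The share of CCK+-enriched genes that rose was thus near that of shared genes. In the CCK--enriched class 44 genes (6.03%) fell and 2 (0.274%) rose, with a median of -0.34. The compared libraries enter this ratio, so membership depended in part on the change itself. Of the 53 genes 21 met the ratio only in refed libraries, as did 14 of the 44, and the 2 exceptions in each class met it only in the fasted libraries. With the ratio required in fasted and refed libraries separately, 32 of 1999 CCK+-enriched genes (1.6%) rose. This share lay below the 1.96% of shared genes and near the 1.31% of all genes. Of 410 CCK--enriched genes 30 (7.32%) fell, against 2.07% of shared genes and 1.23% of all genes. Limma then called 0 of the 1999 lower and 0 of the 410 higher (17 and 16 at unadjusted p < 0.05). With equal sums, where the median of all genes was 0.20, the median of CCK+-enriched genes was 0.62 and that of CCK--enriched genes -0.13. Shared genes were split nearly evenly, 201 higher (1.96%) and 212 lower (2.07%), with a median of -0.03. The same medians in CCK- cells were 0.07 for CCK+-enriched and -0.07 for CCK--enriched genes. The EEC sums of the CCK+ libraries, 84996 to 176276 in fasted and 217951 to 275616 in refed libraries (30658 to 52955 and 50347 to 65483 without Chgb), moved in the direction of the CCK+-enriched median. The enterocyte sums, with means of 354247 fasted and 229174 refed, moved in that of the CCK--enriched median, and the part of these sums in the result was not tested.

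Counts in both classes depended on single libraries. CCK+-enriched genes called higher numbered 94 without A, 10 without B, 27 without F, 31 without C, 6 without D and 7 without E. CCK--enriched genes called lower numbered 10 without B, 17 without F, 69 without C, 2 without D and 6 without E. The smaller counts, of 2 each, were 1 without B, C or E, 4 without F and 0 without D for CCK+-enriched genes that fell, and 1 without C, D or E for CCK--enriched genes that rose. With class limits of 4 and 0.25, 15 of 1296 CCK+-enriched genes (1.16%) rose and limma called 0 of 25 CCK--enriched genes (2 at unadjusted p < 0.05), so the share of the first class then lay below the 1.31% of all genes. The ratio of geometric means gave 46 of 2531 higher (1.82%) and 71 of 810 lower (8.77%). CCK+-enriched genes called higher were 35 with a Y term, 12 without a trend and 6 in the 6 libraries alone. CCK--enriched genes called lower were 68 after quantile normalization, 3 without a trend and 1 in the 6 libraries alone. The 2 CCK+-enriched genes called lower became 4 after quantile normalization, 1 with equal sums and 0 without a trend or in the 6 libraries alone, and the 2 CCK--enriched genes called higher became 13 with equal sums, 5 with the filter or after quantile normalization and 1 without a trend, in the 6 libraries alone or with a Y term.

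**Figure D2:**
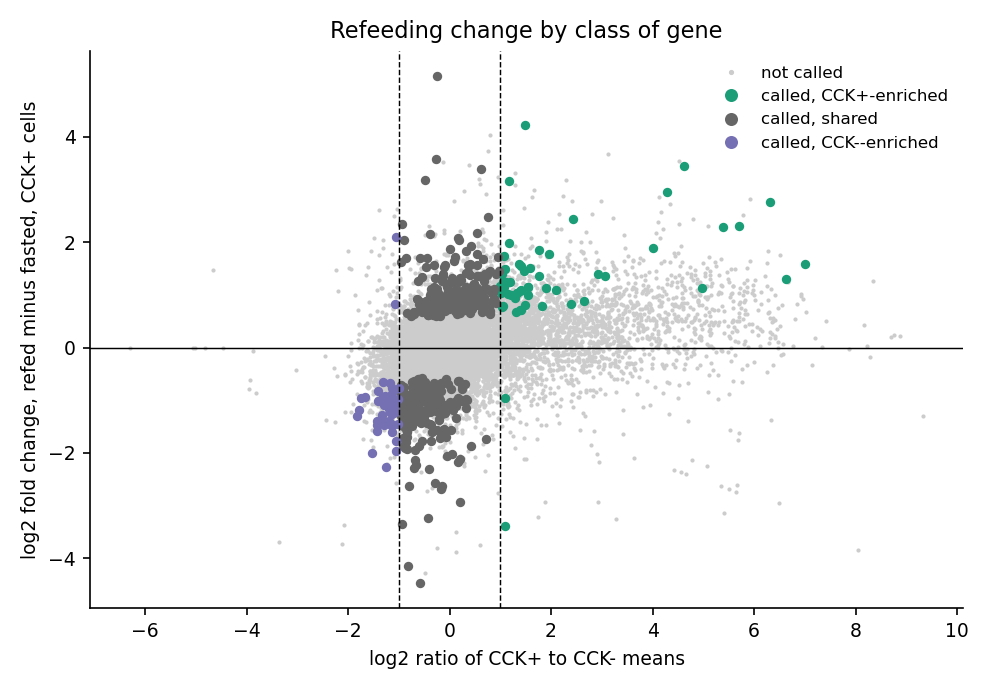
Log2 fold change of refed against fasted in CCK+ cells (vertical axis) by the log2 ratio of CCK+ to CCK- means (horizontal axis), 1 point per gene with a mean of at least 10, called genes as large points colored by class and dashed lines at the class limits. Called genes toward the CCK+ side are mostly higher (53 of 55 at a ratio of at least 2), and those toward the CCK- side mostly lower (44 of 46 at a ratio of at most 0.5), and 21 of the 53 and 14 of the 44 met their limit only in refed libraries. The 53 are 2.1% of their class, against 1.96% of shared genes higher, and the 44 are 6.03%, against 2.07% lower.

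Among CCK+-enriched genes, several of the larger increases were in genes of differing functions, some of which belong to the class only through their refed values. Carnmt1, which methylates carnosine, had 17.97, 25.5 and 12.5 in fasted and 287, 63.3 and 267 in refed mice. Slc15a4, a lysosomal transporter of histidine and peptides, had 38.6, 34.2 and 28.9 in fasted and 51.6, 453 and 282 in refed mice. Their refed values spread widely, with Carnmt1 low in mouse D and Slc15a4 low in mouse C, although neither gene's groups overlapped. Groups that do not overlap were a condition for naming the largest changes of each class, here and below, and are not separate support. The CCK+ to CCK- ratio of Carnmt1 was 0.460 in fasted and 3.57 in refed libraries, and that of Slc15a4 was 1.40 and 8.67. The log2 fold change of 3.17 ± 0.51 (SE; limma, adjusted p = 0.00634) of Carnmt1 stood beside 0.35 (adjusted p = 0.884) in CCK- cells. Its difference between sorts was 2.82 (limma, adjusted p = 0.565) and did not pass the test. Slc15a4 had a log2 fold change of 2.45 ± 0.58 (SE; adjusted p = 0.0404). Dynll1, a light chain of dynein, had 187, 179.9 and 243 in fasted and 603, 717 and 917 in refed mice and a log2 fold change of 1.86 ± 0.27 (SE; adjusted p = 0.00388). Its change in CCK- cells was 2.38 (adjusted p = 0.000427), so it rose in both sorts. Serpini1 encodes neuroserpin, a protease inhibitor of neurons and endocrine cells, and its values were 147, 37.0 and 86.5 in fasted and 237, 358 and 290.3 in refed mice. Serpini1 rose with a log2 fold change of 1.89 ± 0.45 (SE; adjusted p = 0.0412), Fam167a, at a CCK+ to CCK- ratio of 41.6, with 2.30 ± 0.52 (SE; adjusted p = 0.0334), and the kinetochore scaffold Knl1 with 1.73 ± 0.40 (SE; adjusted p = 0.0344). Knl1 had a ratio of 1.40 in fasted and 2.51 in refed libraries, whereas Dynll1, Serpini1 and Fam167a were at a ratio of at least 2 in both states.

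The 2 CCK+-enriched genes that fell, Nin and Slc6a18, reached the class through their fasted values, with ratios of 2.44 and 2.77 in fasted and 1.72 and 0.680 in refed libraries. Nin, which encodes the centrosomal protein ninein, had 468, 515 and 417 in fasted and 263, 233 and 225 in refed mice, a narrow spread in both groups, and a log2 fold change of -0.95 ± 0.20 (SE; limma, adjusted p = 0.0211). Slc6a18, a neutral amino acid transporter named here after its values were seen, had 71.4, 222 and 60.6 in fasted and 4.40, 4.91 and 26.0 in refed mice and a log2 fold change of -3.39 ± 0.65 (SE; adjusted p = 0.0149). Dynll1 kept its call when any 1 of the 6 libraries was left out. Carnmt1 lost its call without E (adjusted p = 0.0663), Slc15a4 without A, B, F, D or E (adjusted p up to 0.225) and Serpini1 without B, F, C, D or E (adjusted p up to 0.200). Fam167a lost its call without A, B, F, C, D or E (adjusted p up to 0.184), Knl1 without A, B, C, D or E (adjusted p up to 0.181) and Nin without B, D or E (adjusted p up to 0.0935). Slc6a18 lost its call without B, C or D (adjusted p up to 0.121). Nin also lost its call with equal sums (adjusted p = 0.0578), Slc15a4 with a pseudocount of 10 (adjusted p = 0.0583) and Serpini1, Fam167a and Knl1 with a Y term (adjusted p up to 0.0725). The EEC marker sums of the same libraries were 84996 to 176276 in fasted and 217951 to 275616 in refed libraries (30658 to 52955 and 50347 to 65483 without Chgb), and their part in the result was not tested.

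Among CCK--enriched genes, larger decreases were in genes of differing functions. Hnf4g, a nuclear receptor of the intestinal epithelium, had 2398, 3976 and 2919 in fasted and 1428, 936 and 974 in refed mice. Clec2h, a C-type lectin, had 4002, 6089.8 and 5608 in fasted and 2781, 1660.3 and 1419 in refed mice. Both genes were highest in fasted mouse B. They were lower in every refed mouse than in any fasted mouse, as the rule for naming them required. Hnf4g fell with a log2 fold change of -1.47 ± 0.21 (SE; limma, adjusted p = 0.00375) and Clec2h with one of -1.46 ± 0.24 (SE; adjusted p = 0.00654). Mertk, a receptor tyrosine kinase for the uptake of dying cells, had 1814, 2635 and 2889 in fasted and 1157, 771 and 763 in refed mice and a log2 fold change of -1.45 ± 0.21 (SE; adjusted p = 0.00388). Cubn, which encodes cubilin, the receptor for vitamin B12 bound to intrinsic factor, had 1036, 2681 and 1826 in fasted and 715, 557 and 605 in refed mice, with mouse B at more than any other CCK+ library, and a log2 fold change of -1.46 ± 0.29 (SE; adjusted p = 0.0173). Hpgd, which inactivates prostaglandins, had a log2 fold change of -1.58 ± 0.31 (SE; adjusted p = 0.0167) and Slc5a4a, of the sodium-glucose cotransporter family, one of -1.59 ± 0.27 (SE; adjusted p = 0.00815). Slc16a9, of the monocarboxylate transporter family, fell from 146, 189.8 and 142 to 77.04, 43.5 and 16.98 (adjusted p = 0.0383), and the copine gene Cpne2 had a log2 fold change of -1.77 ± 0.44 (SE; adjusted p = 0.0484). Mertk, Cpne2 and Cubn met the class limit only in refed libraries, with CCK+ to CCK- ratios of 0.531, 0.547 and just above 0.5 in fasted and 0.413, 0.359 and 0.266 in refed libraries.

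In CCK- cells the changes were -1.18 (adjusted p = 0.0135) for Hnf4g, -1.07 (adjusted p = 0.0224) for Mertk, -1.49 (adjusted p = 0.0181) for Slc5a4a, -0.85 (adjusted p = 0.110) for Clec2h and -0.67 (adjusted p = 0.372) for Cubn. Hpgd, Slc16a9 and Cpne2 were at -1.35 (adjusted p = 0.0505), -1.78 (adjusted p = 0.0951) and -0.97 (adjusted p = 0.398), so 3 of these 8 fell there too. The 2 members of the class that rose were Mtx2, a mitochondrial import protein, with 108, 76.8 and 86.8 in fasted and 188, 138 and 155 in refed mice and a log2 fold change of 0.82 ± 0.20 (SE; limma, adjusted p = 0.0469), and the predicted gene Gm15542, named after its values were seen. Both met the limit only in the fasted libraries. Gm15542 had 359.6, 386 and 585 in fasted and 1591, 2244 and 1773 in refed mice and a log2 fold change of 2.09 ± 0.22 (SE; adjusted p = 0.00151). Hnf4g and Gm15542 kept their calls when any 1 library was left out. Mertk lost its call without D (adjusted p = 0.0508), Clec2h without B, D or E (adjusted p up to 0.0768) and Slc5a4a without B, D or E (adjusted p up to 0.0705). Hpgd lost its call without B, F, D or E (adjusted p up to 0.129), Cubn without B, F, C, D or E (adjusted p up to 0.141) and Slc16a9 without A, B, F, D or E (adjusted p up to 0.186). Cpne2 lost its call without A, B, F, C, D or E (adjusted p up to 0.232) and Mtx2 without B, F, C, D or E (adjusted p up to 0.132). Cpne2 also lost its call with equal sums (adjusted p = 0.0624), Slc16a9 and Cpne2 with a pseudocount of 10 (adjusted p up to 0.0617) and Mtx2 with a Y term (adjusted p = 0.0756). Enterocyte markers summed to 275930, 445520 and 341292 in fasted and 296450, 215281 and 175792 in refed libraries, and their part in these decreases was not tested.

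Among shared genes the decreases were larger than 2 on the log2 scale for several genes. Cyp27a1, the sterol 27-hydroxylase of bile acid synthesis, had 448, 716 and 576 in fasted and 148, 87.5 and 58.5 in refed mice. Nr3c2, the mineralocorticoid receptor, had 939, 1422 and 1216 in fasted and 589, 164 and 182 in refed mice. Cyp27a1 was several times lower in each refed library, and Nr3c2 was lowest in mice D and E with mouse C between them and the fasted mice. They fell with a log2 fold change of -2.63 ± 0.27 (SE; limma, adjusted p = 0.00151) and one of -2.17 ± 0.37 (SE; adjusted p = 0.00773). The extracellular matrix gene Vwa1 fell with -2.22 ± 0.31 (SE; adjusted p = 0.00375) and the uncharacterized AA986860 with -2.31 ± 0.29 (SE; adjusted p = 0.00266). Tfcp2l1, a transcription factor, had -2.06 ± 0.38 (SE; adjusted p = 0.0139), and Lgals3, which encodes galectin-3, had -2.02 ± 0.40 (SE; adjusted p = 0.0167). Increases outside the chaperones included Cntnap1, a contactin-associated membrane protein, with 35.1, 61.3 and 76.4 in fasted and 233, 196 and 264 in refed mice, and the skeletal muscle actin gene Acta1 with 200.3, 79.2 and 125 in fasted and 395, 492 and 723 in refed mice. Neither overlapped between groups, as the rule for naming them required, and their log2 fold changes were 2.04 ± 0.29 (SE; adjusted p = 0.00388) and 2.04 ± 0.40 (SE; adjusted p = 0.0159). In CCK- cells they rose as well, by 3.01 (adjusted p = 0.000147) and 4.63 (adjusted p = 6.24e-05) on the log2 scale. Cyp27a1, AA986860 and Cntnap1 kept their calls without any 1 library. Vwa1 lost its call without D (adjusted p = 0.0585), Nr3c2 without B, F, D or E (adjusted p up to 0.0912) and Lgals3 without B, F, C, D or E (adjusted p up to 0.129). Tfcp2l1 lost its call without B, F, C or D (adjusted p up to 0.117) and Acta1 without B, F, D or E (adjusted p up to 0.123).

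Cytosolic and mitochondrial chaperones fold new and damaged proteins, and 22 of the 35 tested rose, with a median log2 fold change of 1.18 against 0.01 over all genes and 1.31% of all genes called higher. Limma called 0 of them lower, and 26 had an unadjusted p under 0.05, all of them positive. Hsph1, an Hsp110 nucleotide exchange factor, had 214, 312 and 611 in fasted and 2365, 4741 and 4298 in refed mice. Hsp90aa1, the inducible Hsp90, had 1227, 1201 and 1564 in fasted and 4438, 6419 and 6083 in refed mice. Every refed library was far above every fasted one for both genes, and among fasted mice F was highest. Hsph1 rose with a log2 fold change of 3.40 ± 0.46 (SE; limma, adjusted p = 0.00343) and Hsp90aa1 with one of 2.08 ± 0.20 (SE; adjusted p = 0.00151). Hspa8, the constitutive Hsc70 and the most abundant member, had 7100, 6605 and 10279.9 in fasted and 22872, 26500.1 and 24596 in refed mice and a log2 fold change of 1.65 ± 0.20 (SE; adjusted p = 0.00266). Hspd1, the mitochondrial Hsp60, had 856, 859.9 and 1377 in fasted and 2744, 3034 and 3199.8 in refed mice and a log2 fold change of 1.57 ± 0.19 (SE; adjusted p = 0.00265). Its partner Hspe1, the mitochondrial Hsp10, named after its values were seen, had 197, 189 and 259 in fasted and 481, 624 and 599 in refed mice and a log2 fold change of 1.40 ± 0.18 (SE; adjusted p = 0.00283). Stip1, the adaptor between Hsp70 and Hsp90, rose by 1.78 ± 0.23 (SE; adjusted p = 0.00283) and Cacybp, which encodes calcyclin-binding protein, by 1.93 ± 0.31 (SE; adjusted p = 0.00664).

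The inducible Hsp70 genes Hspa1a and Hspa1b are near-identical copies, so the division of reads between them is uncertain. Hspa1a had 29.6, 63.1 and 148 in fasted and 312, 619.7 and 1131 in refed mice, and Hspa1b had 11.96, 36.4 and 109 in fasted and 212, 541 and 782 in refed mice. In both, fasted mouse F was closest to the refed range and refed mouse E was highest. Their log2 fold changes were 3.18 ± 0.74 (SE; adjusted p = 0.0350) and 3.58 ± 0.77 (SE; adjusted p = 0.0246). Of the 35 members 28 belong to the shared class, and 14 were also called higher in CCK- cells, where 0.708% of all genes were and whose EEC sums were 1405 to 2800. Hsph1 rose there by 4.16 (adjusted p = 0.000409) and Hspa8 by 1.33 (adjusted p = 0.00499). The count of 22 became 14 without B or E and 10 without D, and 12 without a trend or in the 6 libraries alone. Hsp90aa1, Hspa8, Hspd1, Stip1 and Hspe1 kept their calls without any 1 of the 6 libraries. Hsph1 lost its call without D (adjusted p = 0.0600), Hspa1b without A, B, C, D or E (adjusted p up to 0.184) and Hspa1a without A, B, F, C, D or E (adjusted p up to 0.221). Cacybp lost its call without D or E (adjusted p up to 0.0655). Hspa1a also lost its call with a pseudocount of 10 (adjusted p = 0.0514).

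Promoter windows, 250 bases before to 50 bases after a start, were read from RefSeq (GRCm38.p6) and are shown because 22 of the 35 chaperones rose. They were searched on both strands for the heat shock element GAANNTTCNNGAA (reverse TTCNNGAANNTTC). Of the 22 genes that rose, 17 had a window and 3 of these held a match (17.6%): Hsph1, Hspd1 and Hspe1. Of all 28 list members with a window 5 held a match (17.9%), so the share was alike in members that rose and in the whole list. Over all 27025 genes with a window the share was 0.662%. A match is a description of letters and not of binding. A gene may have more than 1 window (22 windows for the 17 genes), and a window with a match is shown. Another Hspd1 window (chr1:55088194-55088493, minus strand) held 0 matches, and another Hsph1 window held the same match. In the shown windows of Hsph1 (chr5:149636266-149636565, minus strand) and Hspd1 (chr1:55087883-55088182, minus strand) capitals mark the matches. Those of Hspd1 are a pair that overlap, and its shown window overlaps that of Hspe1 on the plus strand (chr1:55087898-55088197).
Hsph1: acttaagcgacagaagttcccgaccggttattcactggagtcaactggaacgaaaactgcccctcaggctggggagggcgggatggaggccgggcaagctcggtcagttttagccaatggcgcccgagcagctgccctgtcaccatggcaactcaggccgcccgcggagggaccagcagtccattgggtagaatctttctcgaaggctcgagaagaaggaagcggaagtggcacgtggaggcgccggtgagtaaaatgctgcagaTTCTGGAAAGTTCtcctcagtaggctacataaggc
Hspd1: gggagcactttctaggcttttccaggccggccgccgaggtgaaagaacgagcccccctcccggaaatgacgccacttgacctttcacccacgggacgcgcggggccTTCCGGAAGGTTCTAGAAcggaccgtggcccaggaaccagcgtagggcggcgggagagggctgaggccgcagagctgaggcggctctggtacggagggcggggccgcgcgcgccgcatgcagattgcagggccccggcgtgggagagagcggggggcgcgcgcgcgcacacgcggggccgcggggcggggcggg

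**Figure D3:**
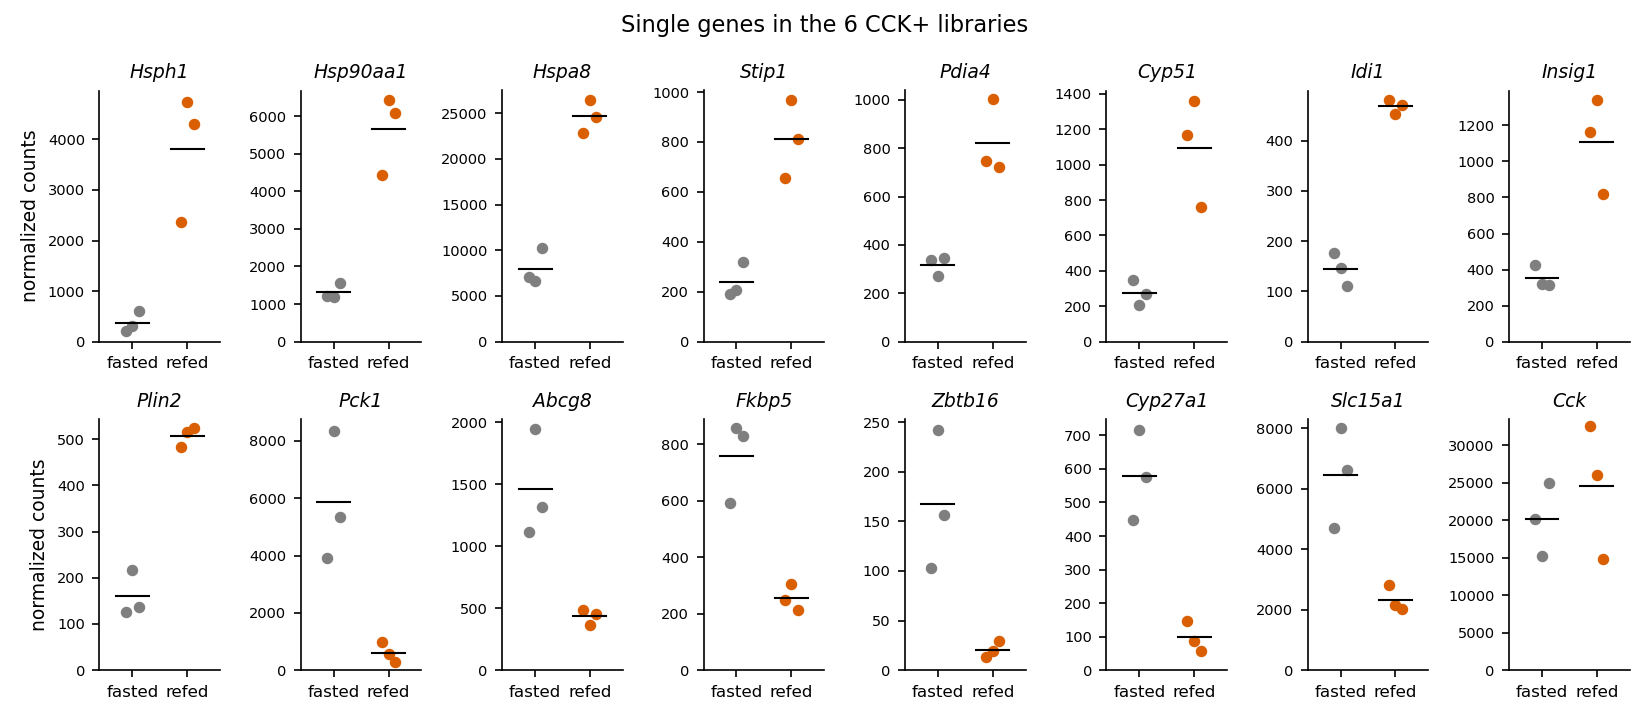
Normalized counts of single genes in each CCK+ library, 1 point per mouse, fasted and refed, on axes that start at 0, with the mean as a line. Hsph1, for example, lies at 214 to 611 in fasted and at 2365 to 4741 in refed mice, and Pck1 at 3913 to 8361 and 301 to 991.

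ER chaperones and genes of the unfolded protein response assist folding of secreted proteins, and 10 of 26 rose (against 1.31% of all genes), with a median of 0.46 and 0 called lower by limma (14 at unadjusted p < 0.05, all positive). The disulfide isomerase Pdia4 had 337, 273 and 348 in fasted and 747, 1003 and 721 in refed mice and a log2 fold change of 1.36 ± 0.17 (SE; limma, adjusted p = 0.00283). Creld2, which is induced by ER stress, had 117, 126 and 129 in fasted and 316, 377 and 256 in refed mice. Both genes had fasted values close together and refed mouse D on top. Creld2 rose by 1.33 ± 0.20 (SE; adjusted p = 0.00431), and the isomerases Pdia3 and Pdia6 by 1.03 ± 0.16 (SE; adjusted p = 0.00529) and 1.46 ± 0.24 (SE; adjusted p = 0.00689). In CCK- cells the log2 fold changes were 0.62 (adjusted p = 0.112) for Pdia4, 0.38 (adjusted p = 0.341) for Pdia3 and 1.05 (adjusted p = 0.0194) for Creld2, and the difference between sorts had an adjusted p of 0.706 for Pdia4. Of the 26 members 23 were shared and none was CCK+-enriched. The count was 6 without B and 3 without D, and 2 without a trend or in the 6 libraries alone. Pdia3 lost its call in these last settings (adjusted p up to 0.0565), and so did Pdia6. Pdia4, Creld2 and Pdia3 kept their calls without any 1 library. Pdia6 lost its call without D or E (adjusted p up to 0.0727).

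**Figure D4:**
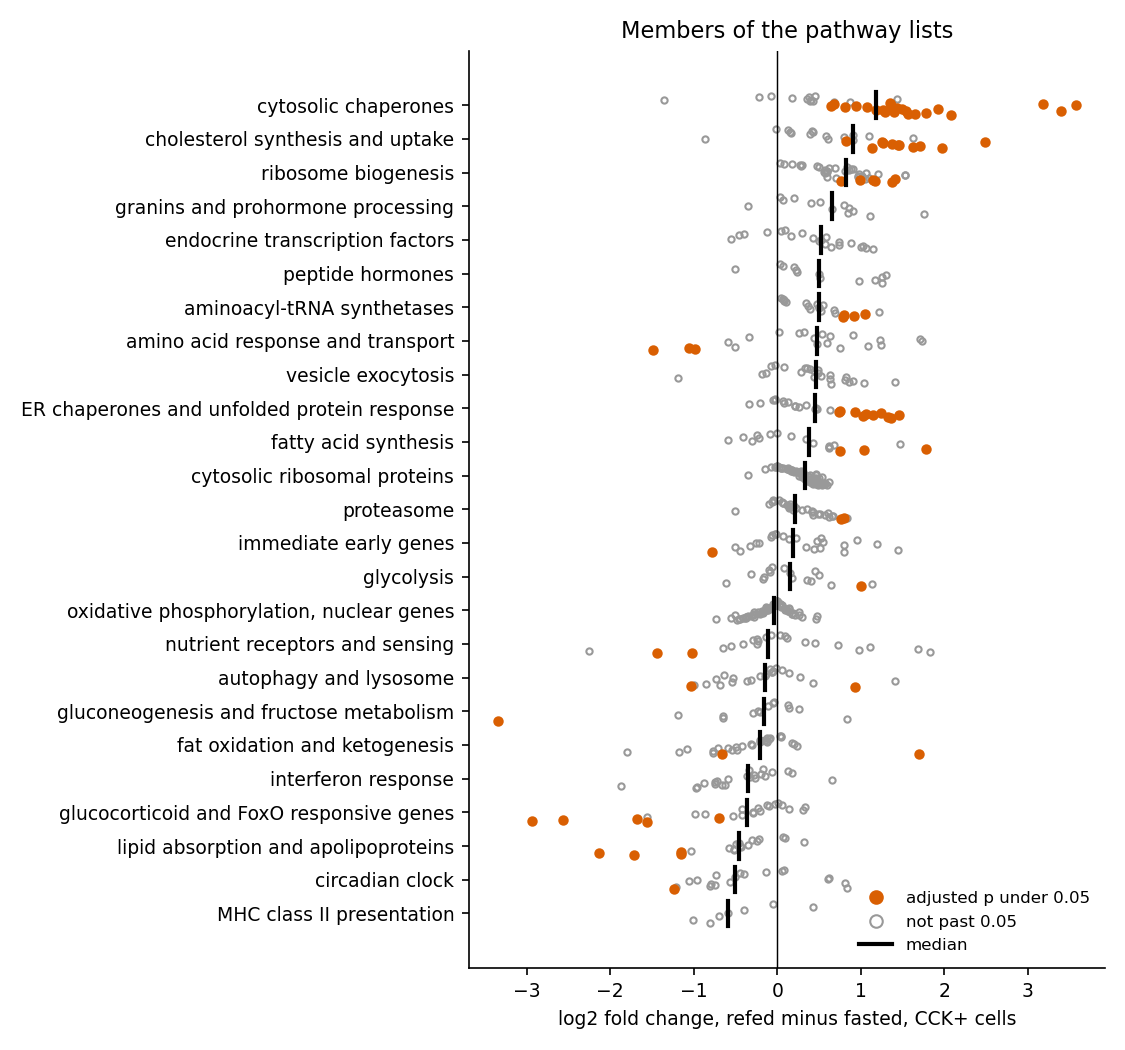
Log2 fold change of refed against fasted in CCK+ cells for the members of each pathway list, 1 point per gene with called genes in color and the list's median as a bar. Cytosolic chaperones have the highest median of the pathway lists (1.18, 22 of 35 higher) and MHC class II presentation the lowest (-0.59, with 0 of 7 called and 0 at unadjusted p < 0.05 by limma).

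Ribosome biogenesis genes act in the nucleolus and in the assembly of ribosomal subunits, and 6 of 38 rose (against 1.31% of all genes), 0 fell by limma and 24 had an unadjusted p under 0.05, with a median of 0.82 and 38 of 38 fold changes positive. Nop58, a core protein of box C/D nucleolar particles, had 171, 158 and 209 in fasted and 419, 474 and 495 in refed mice and a log2 fold change of 1.37 ± 0.21 (SE; limma, adjusted p = 0.00519). Npm1, which encodes nucleophosmin, had 969, 1037 and 1186 in fasted and 1637, 1908 and 1861 in refed mice. Refed values of both genes lay within a narrow range above the fasted ones. Npm1 rose by 0.76 ± 0.15 (SE; adjusted p = 0.0187), the nucleolar chaperone Nolc1 by 1.18 ± 0.24 (SE; adjusted p = 0.0196) and Ltv1, an assembly factor of the small subunit, by 0.99 ± 0.21 (SE; adjusted p = 0.0228). The other called members were Utp15, with 58.1, 79.9 and 103 in fasted and 144, 189 and 194 in refed mice, and Tsr1, with 76.2, 56.2 and 79.8 in fasted and 148, 223 and 199 in refed mice, both processing factors of the small subunit named after their values were seen. Their log2 fold changes were 1.14 ± 0.26 (SE; adjusted p = 0.0302) and 1.41 ± 0.33 (SE; adjusted p = 0.0356). The count of 6 became 1 without B or E and 0 without D, and 1 without a trend or in the 6 libraries alone. Nop58 lost its call without D (adjusted p = 0.0502), Npm1 without B, D or E (adjusted p up to 0.0884) and Nolc1 without B, C, D or E (adjusted p up to 0.0805). Ltv1 lost its call without B, F, D or E (adjusted p up to 0.0916), Utp15 without B, D or E (adjusted p up to 0.115) and Tsr1 without A, B, F, C, D or E (adjusted p up to 0.189). Tsr1 also lost its call with a Y term (adjusted p = 0.0643). Of the members 16 were CCK+-enriched, in libraries whose EEC sums were 84996 to 176276 in fasted and 217951 to 275616 in refed libraries (30658 to 52955 and 50347 to 65483 without Chgb). Cycling or immature crypt markers summed to 2157, 2243 and 4012 in fasted and 4104, 5327 and 5224 in refed libraries, with a median of 0.95 and 12 of 16 at unadjusted p < 0.05, and the part of both sums was not tested.

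The 79 cytosolic ribosomal protein genes had a median of 0.33 (0.55 with equal sums), 72 positive fold changes and 0 calls by limma (24 at unadjusted p < 0.05, all positive); 7 passed with equal sums and 5 after quantile normalization. Aminoacyl-tRNA synthetases charge tRNAs with amino acids, and of 20 tested (of 37 listed) 4 rose (against 1.31% of all genes) and 10 had an unadjusted p under 0.05, with a median of 0.50. Nars, for asparagine, had 929, 1007 and 835 in fasted and 1618, 1579.8 and 1578 in refed mice and a log2 fold change of 0.79 ± 0.15 (SE; limma, adjusted p = 0.0156). Its refed values were almost equal and its fasted values all lower. Iars, for isoleucine, rose by 0.92 ± 0.19 (SE; adjusted p = 0.0210), Farsb, a subunit for phenylalanine, by 0.80 ± 0.19 (SE; adjusted p = 0.0402) and Cars, for cysteine, by 1.06 ± 0.26 (SE; adjusted p = 0.0479). With mouse as a random block Cars lost its call (adjusted p = 0.0508). Of 34 proteasome genes 2 rose (against 1.31% of all genes, 13 positive and 1 negative at unadjusted p < 0.05), and the list's median was 0.21 (0.44 with equal sums). Psmd12, of the regulatory particle, had 283, 253 and 313 in fasted and 508, 484 and 444 in refed mice and a log2 fold change of 0.76 ± 0.15 (SE; adjusted p = 0.0174). Psmb7, of the core, had 238, 217 and 279 in fasted and 480, 388 and 408 in refed mice and one of 0.80 ± 0.19 (SE; adjusted p = 0.0352). The synthetase count was 1 without B, 2 without F or C and 0 without D or E, and 7 with equal sums or after quantile normalization, 2 with a Y term and 0 without a trend or in the 6 libraries alone. The proteasome count was 0 without B or D and 1 without F, C or E, and 7 with equal sums, 5 after quantile normalization, 1 with a Y term and 0 without a trend or in the 6 libraries alone. Nars lost its call without F, D or E (adjusted p up to 0.0739), Iars without B, D or E (adjusted p up to 0.115) and Farsb without B, F, C, D or E (adjusted p up to 0.138). Cars lost its call without B, C, D or E (adjusted p up to 0.121), Psmd12 without B or D (adjusted p up to 0.0633) and Psmb7 without A, B, F, C, D or E (adjusted p up to 0.122). Cars also lost its call with a pseudocount of 10 (adjusted p = 0.0515) and Farsb, Cars and Psmb7 with a Y term (adjusted p up to 0.0718).

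Genes of cholesterol synthesis and uptake rose in 11 of 26 cases (against 1.31% of all genes) and 0 fell by limma (18 positive and 1 negative at unadjusted p < 0.05), with a median of 0.91. Cyp51, the lanosterol demethylase, had 349.7, 208 and 269 in fasted and 1167, 1361 and 759 in refed mice and a log2 fold change of 1.98 ± 0.29 (SE; limma, adjusted p = 0.00431). Insig1, which retains the sterol sensor SCAP in the ER, had 426, 321 and 315 in fasted and 1165, 1342 and 819.7 in refed mice. In both genes mouse E was the lowest of the refed mice, and the groups lay apart. Insig1 rose by 1.63 ± 0.25 (SE; adjusted p = 0.00519) and Idi1, the isopentenyl diphosphate isomerase, by 1.71 ± 0.27 (SE; adjusted p = 0.00553). Hmgcs1, which makes HMG-CoA and was named after its values were seen, had 734, 573 and 479 in fasted and 1173, 1713 and 1367 in refed mice and a log2 fold change of 1.25 ± 0.26 (SE; adjusted p = 0.0222). In CCK- cells 11 of the 26 rose, against 0.708% of all genes, with Insig1 at 2.50 (adjusted p = 0.000192) and Cyp51 at 1.66 (adjusted p = 0.0137), and 23 of the 26 were shared genes. The most abundant member was Npc1l1, the sterol uptake protein of enterocytes, with 7814, 15472 and 12505 in fasted and 7577, 6098 and 5372 in refed mice. Chosen after its values were seen, it had a log2 fold change of -0.87 ± 0.24 (SE; adjusted p = 0.0778), which did not pass the test, but it was called lower without A (adjusted p = 0.0222). The count of 11 became 6 without B or F, 7 without C or E and 1 without D, and 6 without a trend and 3 in the 6 libraries alone. Cyp51 lost its call without D (adjusted p = 0.0633), Insig1 without D (adjusted p = 0.0680) and Idi1 without D (adjusted p = 0.0600). Hmgcs1 lost its call without B, F, C, D or E (adjusted p up to 0.168).

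Windows of the cholesterol genes were searched for the sterol regulatory element TCACNCCAC (reverse GTGGNGTGA), since 11 of the 26 genes rose. Of the 11 that rose 6 had a window, and 1 of them, Hmgcs1, held a match. It was also the only match among the 18 list members with a window (5.56%), and 1.44% of all 27025 genes with a window had one. The window of Hmgcs1 (RefSeq, GRCm38.p6, chr13:119690101-119690400, plus strand) carries the match in capitals.
Hmgcs1: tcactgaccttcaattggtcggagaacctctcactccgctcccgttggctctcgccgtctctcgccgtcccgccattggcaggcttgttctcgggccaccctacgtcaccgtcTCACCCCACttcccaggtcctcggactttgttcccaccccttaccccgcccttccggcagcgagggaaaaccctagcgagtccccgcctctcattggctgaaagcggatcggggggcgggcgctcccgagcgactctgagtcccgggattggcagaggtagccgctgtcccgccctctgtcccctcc

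Fatty acid synthesis genes had a median of 0.38 (0.61 with equal sums) with 3 of 18 higher (against 1.31% of all genes, 7 positive at unadjusted p < 0.05). Mlxipl, the carbohydrate response factor ChREBP, had 2083, 2298 and 2254 in fasted and 3512, 3632 and 3995 in refed mice. Acly, which makes cytosolic acetyl-CoA, had 269, 236 and 302 in fasted and 541, 541 and 566 in refed mice. Values within each group were close for both genes, and the log2 fold changes were 0.75 ± 0.13 (SE; adjusted p = 0.0107) and 1.03 ± 0.19 (SE; adjusted p = 0.0139). Scd2, a stearoyl-CoA desaturase, rose from 71.1, 59.5 and 38.3 to 205, 213 and 155, by 1.78 ± 0.37 (SE; adjusted p = 0.0208). Fat oxidation and ketogenesis genes had a median of -0.20 over 29 (0.02 with equal sums, the opposite sign), 1 higher and 1 lower (against 1.31% and 1.23% of all genes, 1 positive and 8 negative at unadjusted p < 0.05). Plin2, which coats lipid droplets, had 126, 216 and 137 in fasted and 482, 515 and 524 in refed mice and a log2 fold change of 1.70 ± 0.22 (SE; limma, adjusted p = 0.00294). Ppargc1a, the coactivator PGC-1alpha, had 1704, 2075 and 1556 in fasted and 1251, 976 and 1137 in refed mice and fell by 0.66 on the log2 scale (adjusted p = 0.0283). Fatty acid synthesis calls numbered 1 without B, D or E, and 0 without a trend or in the 6 libraries alone. Fat oxidation decreases numbered 3 without A and 0 without B, D or E, and 3 with the filter or after quantile normalization, 2 with mouse as a random block and 0 with equal sums, without a trend or in the 6 libraries alone. Mlxipl and Plin2 kept their calls without any 1 library. Acly lost its call without B, D or E (adjusted p up to 0.0727), Scd2 without B, F, C, D or E (adjusted p up to 0.116) and Ppargc1a without B, D or E (adjusted p up to 0.105). Ppargc1a also lost its call with equal sums (adjusted p = 0.0808).

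Of 19 genes of lipid absorption and apolipoproteins 4 fell (against 1.23% of all genes) and limma called 0 higher (7 negative at unadjusted p < 0.05, and 1 called higher after quantile normalization), with a median of -0.46 (-0.24 with equal sums). Abcg5 and Abcg8 form the transporter that returns sterols to the lumen. Abcg8 had 1118, 1949 and 1319.7 in fasted and 488, 362 and 453 in refed mice, and Abcg5 had 941, 1165 and 1222 in fasted and 562, 394 and 543 in refed mice. Refed values of both were similar to each other and all below the fasted ones. Abcg8 fell with a log2 fold change of -1.72 ± 0.21 (SE; limma, adjusted p = 0.00265) and Abcg5 with one of -1.16 ± 0.18 (SE; adjusted p = 0.00529). Abca1, which exports cholesterol to apolipoprotein A-I, had 454, 553 and 839 in fasted and 179, 117 and 118 in refed mice and fell by 2.13 on the log2 scale (adjusted p = 0.00739). Cd36, a fatty acid translocase, had 432, 730.1 and 541 in fasted and 404, 204 and 186 in refed mice and fell by 1.16 (adjusted p = 0.0349). In CCK- cells Abcg8 and Abca1 fell as well, at -1.27 (adjusted p = 0.00834) and -1.78 (adjusted p = 0.0276). The enterocyte marker sums were 275930 to 445520 in fasted and 175792 to 296450 in refed libraries, and their part in the result was not tested. The count was 2 without B, F, D or E, and 2 in the 6 libraries alone and 1 without a trend. Abcg8 and Abcg5 kept their calls without any 1 library. Abca1 lost its call without B, F, D or E (adjusted p up to 0.0903) and Cd36 without B, F, D or E (adjusted p up to 0.211). Cd36 also lost its call with a Y term (adjusted p = 0.0557).

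Pck1, which encodes the cytosolic phosphoenolpyruvate carboxykinase of gluconeogenesis and glyceroneogenesis, had 3913, 8361 and 5351 in fasted and 991, 554 and 301 in refed mice. All 3 refed libraries were well below the lowest fasted one, and mouse B was highest. It fell with a log2 fold change of -3.35 ± 0.37 (SE; limma, adjusted p = 0.00172), in CCK- cells at -2.66 (adjusted p = 0.00280), and it kept its call without any 1 library. It was the only one of 14 genes of gluconeogenesis and fructose metabolism that was called lower (against 1.23% of all genes, 3 negative and 1 positive at unadjusted p < 0.05), and 1 was called higher with equal sums. The list's median was -0.16, but 0.06 with equal sums and 0.04 after quantile normalization. Glycolysis genes had a median of 0.16 over 17 (0.38 with equal sums and 0.25 after quantile normalization), and 1 rose (against 1.31% of all genes, 5 positive and 1 negative at unadjusted p < 0.05). The count was 0 without B, F, D or E, and 3 after quantile normalization, 2 with the filter or with equal sums and 0 without a trend, in the 6 libraries alone or with a Y term. Slc2a1, the glucose transporter GLUT1, had 138, 103 and 131 in fasted and 222, 274 and 250.2 in refed mice, at a CCK+ to CCK- ratio of 1.98 in fasted and 3.84 in refed libraries, and rose with a log2 fold change of 1.01 ± 0.23 (SE; adjusted p = 0.0326). Slc2a1 lost its call without B, F, D or E (adjusted p up to 0.119). Slc2a1 also lost its call with a Y term (adjusted p = 0.0524). Limma called 0 of 71 nuclear genes of oxidative phosphorylation (6 at unadjusted p < 0.05), with a median of -0.04 that became 0.18 with equal sums.

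The window of Pck1 (RefSeq, GRCm38.p6, chr2:173152823-173153122, plus strand) was searched for the cAMP response element TGACGTCA, which it does not hold (1.79% of all windows do), and for the variant TTACGTCA (reverse TGACGTAA). The variant is in 0.499% of all windows and in that of Pck1, where capitals mark it.
Pck1: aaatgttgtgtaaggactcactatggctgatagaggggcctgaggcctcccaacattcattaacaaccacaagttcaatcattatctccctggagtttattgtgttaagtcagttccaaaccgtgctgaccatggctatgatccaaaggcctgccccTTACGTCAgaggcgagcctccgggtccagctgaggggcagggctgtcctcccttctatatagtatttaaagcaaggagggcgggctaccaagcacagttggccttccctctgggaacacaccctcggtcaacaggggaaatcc

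Genes responsive to glucocorticoids or FoxO factors, which act in fasting, had a median of -0.36 over 24 (-0.13 with equal sums), with 5 lower (against 1.23% of all genes) and 0 higher by limma (8 negative at unadjusted p < 0.05). Fkbp5, a co-chaperone of the glucocorticoid receptor, had 591, 857 and 829 in fasted and 249.7, 306 and 215 in refed mice. Zbtb16, the transcription factor PLZF, had 103, 242 and 156 in fasted and 13.2, 19.2 and 29.7 in refed mice. Klf15, a transcription factor of amino acid and lipid use in fasting, had 38.2, 125 and 67.98 in fasted and 5.75, 16.4 and 13.1 in refed mice. The refed libraries of these genes were all low, whereas fasted values varied, with mouse B highest. Fkbp5 fell with a log2 fold change of -1.55 ± 0.21 (SE; limma, adjusted p = 0.00343), Zbtb16 with one of -2.94 ± 0.42 (SE; adjusted p = 0.00388) and Klf15 with one of -2.56 ± 0.56 (SE; adjusted p = 0.0265). Sgk1, a kinase that regulates sodium transport, had 1031, 3453 and 2517 in fasted and 736, 607 and 613 in refed mice and fell by 1.68 on the log2 scale (adjusted p = 0.0320). Irs2, the insulin receptor substrate named after its values were seen, had 1129.5, 1225 and 1162 in fasted and 579.6, 811 and 804 in refed mice and fell by 0.70 (adjusted p = 0.0499). In CCK- cells Fkbp5, Zbtb16 and Klf15 fell, at -2.60 (adjusted p = 6.24e-05), -4.79 (adjusted p = 7.15e-05) and -3.98 (adjusted p = 0.00280). The count of 5 became 2 when B, F, C, D or E was left out, and 2 without a trend or in the 6 libraries alone.

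In the circadian clock list (19 genes, median -0.51, or -0.28 with equal sums) Nr1d1, the repressor REV-ERBalpha, was the gene called lower (against 1.23% of all genes), with 2607, 3787 and 2784 in fasted and 1503, 1359 and 1038 in refed mice. The refed values were all below the fasted ones, and the log2 fold change of -1.23 ± 0.18 (SE; limma, adjusted p = 0.00388) stood beside -0.88 (adjusted p = 0.0287) in CCK- cells. Another 8 clock genes had an unadjusted p under 0.05 (6 negative and 2 positive), and 1 was called higher with equal sums or after quantile normalization. The hour of collection was not given in the sources used here. Among 24 immediate early genes (median 0.19, or 0.41 with equal sums and 0.31 after quantile normalization) Fosl2, an AP-1 subunit, had 2188, 3533 and 3095 in fasted and 1720, 1579 and 1727 in refed mice and fell by 0.78 on the log2 scale (adjusted p = 0.0464), and the others did not pass the test (1 of 24 called lower, against 1.23% of all genes, and 2 positive and 2 negative at unadjusted p < 0.05). This list had 2 genes called lower without A. Of the genes in these lists Fkbp5, Zbtb16 and Nr1d1 kept their calls without any 1 library. Klf15 lost its call without B, F, C, D or E (adjusted p up to 0.129), Sgk1 without B, F, C, D or E (adjusted p up to 0.196) and Irs2 without A, B, F, C, D or E (adjusted p up to 0.149). Fosl2 lost its call without B, F, C, D or E (adjusted p up to 0.195). Irs2 and Fosl2 also lost their calls with equal sums (adjusted p up to 0.177), Fosl2 with a pseudocount of 10 (adjusted p = 0.0515) and Irs2 with a Y term (adjusted p = 0.0724).

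Single transporters for amino acids, peptides and glucose were called lower, in lists whose other members did not pass the test, and the glucose transporter Slc2a1 was called higher. In the list of amino acid response and transport 3 of 21 were lower (against 1.23% of all genes) and limma called 0 higher (6 positive and 5 negative at unadjusted p < 0.05, and 1 called higher with equal sums or after quantile normalization), with a median of 0.47, so that the called genes ran against the list's median. Slc6a19, the apical neutral amino acid transporter B0AT1, had 5194, 10031 and 7744 in fasted and 4044, 2151 and 2119 in refed mice and a log2 fold change of -1.48 ± 0.26 (SE; limma, adjusted p = 0.00970). The basolateral exchanger Slc7a8 fell by 0.98 (adjusted p = 0.0167) and the cystine transporter Slc7a9 by 1.05 on the log2 scale (adjusted p = 0.0168). The count of 3 became 0 without B, F, D or E, and 0 without a trend or in the 6 libraries alone. In the list of nutrient receptors and sensing 2 of 22 fell (against 1.23% of all genes, 3 positive and 4 negative at unadjusted p < 0.05), but 1 without B, F, D or E, and 1 with a pseudocount of 10, without a trend or with a Y term and 0 in the 6 libraries alone. Slc15a1, the peptide transporter PEPT1, had 4698, 8009.6 and 6620.1 in fasted and 2825, 2154 and 2028 in refed mice, and Slc5a1, the sodium-glucose cotransporter SGLT1, had 16149, 27120.3 and 22355 in fasted and 13908, 10363 and 8095 in refed mice. Mouse B was highest for each and mice D and E were lowest, with no overlap between groups. Slc15a1 fell with a log2 fold change of -1.44 ± 0.20 (SE; adjusted p = 0.00363) and Slc5a1 with one of -1.02 ± 0.24 (SE; adjusted p = 0.0391), and CCK- cells had -0.99 (adjusted p = 0.0287) and -0.49 (adjusted p = 0.452). Slc5a1 had a CCK+ to CCK- ratio of 0.378 and Slc15a1 of 0.530. Slc15a1 kept its call without any 1 library. Slc6a19 lost its call without B, F, D or E (adjusted p up to 0.0941), Slc7a8 without B, F, D or E (adjusted p up to 0.102) and Slc7a9 without B, F, D or E (adjusted p up to 0.102). Slc5a1 lost its call without B, F, D or E (adjusted p up to 0.167). Slc5a1 also lost its call with a pseudocount of 10 (adjusted p = 0.0566) and with a Y term (adjusted p = 0.0629). The enterocyte sums, of 275930 to 445520 fasted and 175792 to 296450 refed, were lower in mice D and E than in any fasted mouse, and their part in the result was not tested.

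Receptors by which EECs detect nutrients did not pass the test, with values that overlapped in most cases. The free fatty acid receptor gene Ffar1 had 542, 216 and 448 in fasted and 496, 372 and 306 in refed mice and a log2 fold change of 0.04 ± 0.43 (SE; adjusted p = 1.000). Casr, the calcium-sensing receptor that also responds to amino acids, had 95.5, 98.4 and 94.8 in fasted and 148, 102 and 75.2 in refed mice and 0.11 ± 0.51 (SE; adjusted p = 0.952). Ffar2, a receptor for short-chain fatty acids, had 172, 58.01 and 94.4 in fasted and 227, 404 and 353 in refed mice, and Trpa1, a cation channel of enterochromaffin cells, had 555, 204 and 544 in fasted and 1220.1, 1269 and 1779.8 in refed mice. These groups did not overlap, yet the log2 fold changes of 1.69 ± 0.66 (SE; adjusted p = 0.205) and 1.82 ± 0.52 (SE; adjusted p = 0.0877) did not pass. Trpa1 was called with a pseudocount of 10 (adjusted p = 0.0347). Gpr35, whose groups also lay apart, was at 0.98 ± 0.35 (SE), Gpr119 at -0.25 ± 0.53, Ffar3 at 0.09 ± 0.71 and Ffar4 at 0.45 ± 0.82. These further receptors for lipids and metabolites did not pass either. The channel subunits Abcc8 and Kcnj11, which couple glucose to secretion in beta cells, had log2 fold changes of -0.07 and -0.14, and Slc2a2, the glucose transporter GLUT2, had -0.65 ± 0.28 (SE; adjusted p = 0.253). Lpar5, Tas1r3 and Trpm5 were at -0.55, -0.24 and -0.23. Tas1r1, Tas1r2, Gnat3, Gpr142 and Gpbar1 were at 0 to 9.94 in the 6 libraries, and of these only Tas1r2 had groups that did not overlap, at -2.25 ± 0.66 (SE; adjusted p = 0.0941). The median of the 22 genes was -0.11, and 0.12 with equal sums and -0.24 after quantile normalization.

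Limma called 0 of the 13 tested peptide hormone genes (of 14 listed) after refeeding, against 1.31% of all genes higher and 1.23% lower. At these shares a list of this size can hold 0 calls. Of the 13 genes 3 had an unadjusted p under 0.05, all higher, against 3736 of all 22042 genes in either direction. The list median was 0.50. Gip, the incretin of K cells, had 34279, 10775 and 18225 in fasted and 20310.1, 29342 and 18175 in refed mice and a log2 fold change of 0.23 ± 0.36 (SE; adjusted p = 0.804). Sct, which encodes secretin, had 9095, 4670.2 and 7693 in fasted and 11051, 11604 and 7393 in refed mice and 0.51 ± 0.24 (SE; adjusted p = 0.305). Gcg, the source of GLP-1, had 7896, 4946 and 11229 in fasted and 10354, 10184 and 6316 in refed mice and 0.20 ± 0.48 (SE; adjusted p = 0.883). The groups of these hormones overlapped, as did those of Sst, Ghrl, Iapp and Penk. Nts, which encodes neurotensin, had 2605, 2261 and 2163 in fasted and 6479, 7116 and 3796 in refed mice, and Pyy had 713, 379 and 705 in fasted and 855, 1606 and 1062 in refed mice. Both were higher in each refed than in each fasted library, but at 1.26 ± 0.37 (SE; adjusted p = 0.0945) and 0.98 ± 0.36 (SE; adjusted p = 0.183) neither passed the test. Cartpt, Tac1 and Ucn3 also had groups that did not overlap, with log2 fold changes of 1.30, 1.17 and 1.25 and adjusted p of 0.409, 0.256 and 0.399. Sst, Ghrl, Iapp and Penk had log2 fold changes of 0.04, 0.07, 0.50 and -0.51. Nts was called with a pseudocount of 10 (adjusted p = 0.0311), with equal sums (0.0487), after quantile normalization (0.0462) and with a Y term (0.0498).

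Granins and enzymes that process prohormones likewise had 0 calls of 13 by limma, against 1.31% of all genes higher and 1.23% lower. Of the 13 genes 5 had an unadjusted p under 0.05, all positive, and the median was 0.66. Chgb, the most abundant EEC transcript in the lists, had 123321, 54338 and 89128 in fasted and 152468, 211125 and 188044 in refed mice, and Vgf, a granin-like precursor, had 107, 82.05 and 136 in fasted and 223, 396 and 533 in refed mice. Refed values lay above the fasted ones in both, but the log2 fold changes of 1.11 ± 0.31 (SE; adjusted p = 0.0814) and 1.75 ± 0.52 (SE; adjusted p = 0.0945) did not pass the test. Vgf was called with a pseudocount of 10 (adjusted p = 0.0195). Chga had 10388, 3953 and 6365 in fasted and 8413, 12744 and 16110 in refed mice, with refed mouse C among the fasted mice, and 0.91 ± 0.31 (SE; adjusted p = 0.142). Pcsk1, the prohormone convertase, had 2389.8, 1248 and 1524 in fasted and 2515, 3223 and 3258 in refed mice and 0.85 ± 0.28 (SE; adjusted p = 0.135), and Scg3 was at 0.86 with groups apart. Scg2, Cpe, Pcsk2, Pam, Scg5, Pcsk1n, Cpd and Furin overlapped between groups, at 0.03, 0.40, 0.21, 0.66, 0.80, 0.52, 0.07 and -0.35. Endocrine transcription factors had a median of 0.52 (0 of 21 called by limma, 3 at unadjusted p < 0.05, and 2 called without A). Vesicle exocytosis genes had one of 0.47 (0 of 24, 7 at unadjusted p < 0.05). Both counts stand beside the same shares of all genes, and at these shares lists of this size can hold 0 calls. The medians of these lists moved in the same direction as the EEC sums, 84996 to 176276 in fasted and 217951 to 275616 in refed libraries (30658 to 52955 and 50347 to 65483 without Chgb), and the part of these sums was not tested.

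Autophagy and lysosome genes had a median of -0.14 over 24 (0.08 with equal sums), with 1 higher and 1 lower (against 1.31% and 1.23% of all genes, 1 positive and 4 negative at unadjusted p < 0.05). Ctsl, the lysosomal protease cathepsin L, had 722, 542 and 646 in fasted and 979.9, 1217 and 1483 in refed mice and rose with a log2 fold change of 0.93 ± 0.20 (SE; limma, adjusted p = 0.0224). Ulk2, a kinase that starts autophagy, had 285, 386 and 338 in fasted and 233, 157 and 119 in refed mice and fell by 1.03 on the log2 scale (adjusted p = 0.0395). Ctsl lost its call without B, F, D or E (adjusted p up to 0.118) and Ulk2 without A, B, F, D or E (adjusted p up to 0.176). Ulk2 also lost its call with equal sums (adjusted p = 0.0612). The count of 1 higher was 0 without a trend or in the 6 libraries alone, and that of 1 lower was 3 after quantile normalization, 2 with the filter and 0 with equal sums, without a trend or in the 6 libraries alone. Interferon response genes had a median of -0.35 (-0.13 with equal sums) with 0 of 22 called by limma (7 negative at unadjusted p < 0.05), and 1 with the filter, after quantile normalization or with a Y term. MHC class II genes had one of -0.59 (-0.36 with equal sums) with 0 of 7 called (0 at unadjusted p < 0.05).

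Of the marker lists, the enterocyte list had a median of -0.51 (-0.28 with equal sums and -0.21 after quantile normalization), and Lct, which encodes lactase and was named after its values were seen, was its gene called lower (1 of 12, against 1.23% of all genes, and 6 negative at unadjusted p < 0.05), with 6929.6, 10152 and 8449.6 in fasted and 6071, 4478 and 2950.2 in refed mice and a log2 fold change of -0.96 ± 0.24 (SE; limma, adjusted p = 0.0460). Cycling or immature crypt markers had a median of 0.95 (1 of 16 higher, against 1.31% of all genes, and 12 positive at unadjusted p < 0.05), and Mki67 was 25.6 to 32.5% of each of their sums given above. Without it refed mouse C lay below fasted mouse F, at 2770 against 2985. Mki67, a marker of proliferating cells, had 652, 668 and 1028 in fasted and 1334, 1581 and 1553 in refed mice and rose with a log2 fold change of 0.96 ± 0.22 (SE; adjusted p = 0.0344). Mki67 lost its call without A, B, C, D or E (adjusted p up to 0.180) and Lct without A, B, F, D or E (adjusted p up to 0.190). Lct also lost its call with equal sums (adjusted p = 0.0654), after quantile normalization (adjusted p = 0.0516), with a pseudocount of 10 (adjusted p = 0.0586) and with a Y term (adjusted p = 0.0515). The cycling count was 0 without A, B, C, D or E and 3 without F, and 4 with equal sums, 3 after quantile normalization, 2 with the filter and 0 without a trend or in the 6 libraries alone. The enterocyte count of genes called lower was 0 without B, F, D or E and 4 without C, and 2 with the filter and 0 with a pseudocount of 10, with equal sums, without a trend, in the 6 libraries alone or with a Y term, and 1 was called higher after quantile normalization. Paneth markers, led by Lyz1, summed to 16990, 1830 and 2054 in fasted and 7796, 27085 and 7587 in refed libraries, with wide overlap, and had a median of 1.38 (0 of 8 called by limma, 6 at unadjusted p < 0.05, 2 called without A). Goblet markers had a median of 0.39, or 0.62 with equal sums and 0.60 after quantile normalization (0 of 8, 2 at unadjusted p < 0.05), with sums of 21437, 24821 and 32069 in fasted and 39720, 27595 and 31640 in refed libraries, and tuft markers of 0.15, or 0.36 with equal sums and 0.06 after quantile normalization (0 of 10, 0 at unadjusted p < 0.05). Lymphocyte markers, led by Gzma, summed to 5430 to 11601 in CCK+ and to 659 to 1379 in CCK- libraries, and their fasted and refed sums overlapped, with a median of 0.14, or 0.37 with equal sums (0 of 14, 1 at unadjusted p < 0.05, 1 called without F).

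Myeloid markers had a median of 0.64 (0 of 9 by limma, 2 at unadjusted p < 0.05, 2 called without F), stromal and endothelial markers of -0.40 (0 of 10, 2 at unadjusted p < 0.05, 2 called without F), enteric neuron and glia markers of 0.48 (0 of 7 tested, 1 at unadjusted p < 0.05), and the 1 erythroid marker tested, Alas2, had values of 1.36 to 25.5 and a log2 fold change of -0.76 ± 0.92 (SE; adjusted p = 0.739).

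Of 84 called genes chosen by rule or singled out, 54 lost their calls without a trend, 63 in the 6 libraries alone with the filter, 7 with equal sums, 9 with a pseudocount of 10 and 14 with a Y term. Calls held in each of these settings and after quantile normalization for Cyp51, Dynll1, Hsph1, Hsp90aa1, Stip1, Pck1, Cyp27a1, AA986860, Hspd1, Hspa8, Pdia4, Nop58, Insig1, Idi1, Plin2, Abcg8, Fkbp5, Zbtb16, Hspe1 and Gm15542. Of these genes Cyp51, Hsph1, Nop58, Insig1 and Idi1 were not called without refed mouse D, and the others were called without any 1 library.

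The 6 CCK- libraries of the same mice gave 272 calls after refeeding (1.23% of 22042), 156 higher (0.708%) and 116 lower (0.526%). The sorts share their mice, so the changes are set side by side. Of the 289 genes higher in CCK+ cells 66 (of the 156) were also called higher in CCK- cells, of the 272 lower 50 (of the 116) were called lower, and limma called 0 in opposite directions; the interaction had 1378 genes at unadjusted p < 0.05. The median log2 fold change of the 289 was 1.09 in CCK+ and 0.49 in CCK- cells, and that of the 272 was -1.10 and -0.66. Because these genes were chosen in CCK+ cells, their smaller change in CCK- cells is not a test of a difference between sorts.

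The test of the difference between sorts called 1 gene, 0.00454% of those tested. Gvin1, an interferon-inducible GTPase of very large size, had 107, 320.2 and 384 in fasted and 476, 468 and 499 in refed mice in CCK+ cells, which did not overlap, and a log2 fold change of 1.02 ± 0.38 (SE; adjusted p = 0.188). In CCK- cells it was listed at 0 in all 3 fasted libraries and at 219, 196 and 159 in the refed ones. Its difference between sorts, which depends on the pseudocount because of these zeros, was -6.55 ± 0.54 (SE; adjusted p = 0.000161), and it was no longer called with a pseudocount of 10 (-3.33, adjusted p = 0.146), with within-mouse differences (adjusted p = 0.484), or without mouse B (0.0618), C (0.231) or D (0.0908). Gvin1 has close relatives in sequence, so its counts are uncertain. For Nts the difference was 2.49 (adjusted p = 0.460) and for Acta1 -2.59 (adjusted p = 0.460), so neither passed.

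**Figure D5:**
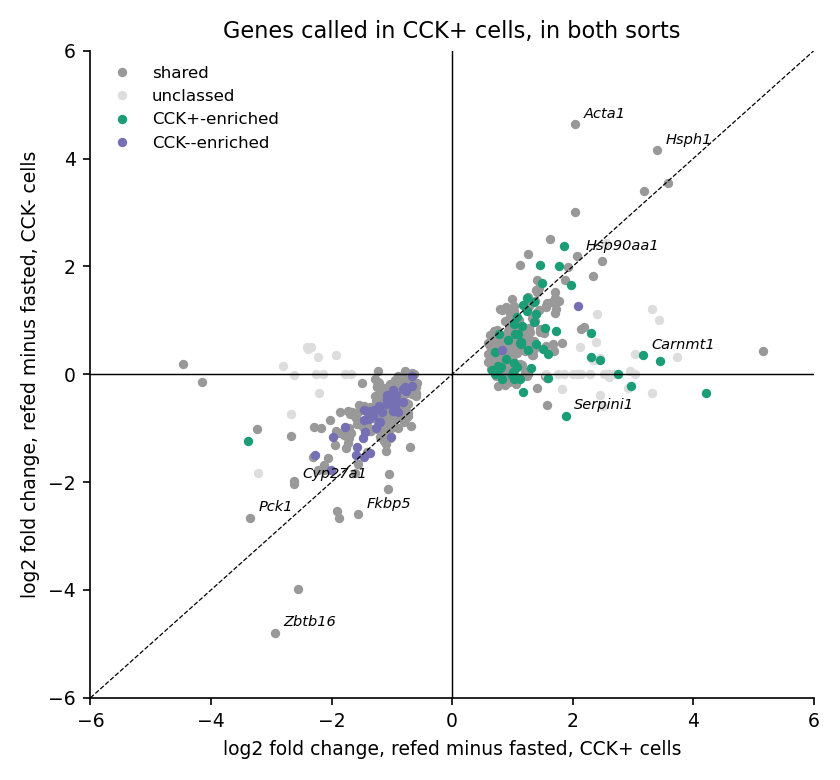
Log2 fold change of refed against fasted in CCK+ cells (horizontal axis) and in CCK- cells of the same mice (vertical axis) for the genes called in CCK+ cells, colored by class, with a dashed line where both changes are equal. Most points lie in the quadrants of equal sign (247 of 289 higher and 259 of 272 lower).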

How the data were processed

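Bulk RNA-seq of sorted CCK+ and CCK- cells from 6 mice gave 12 libraries, 1 per mouse and sort, in 4 groups of 3. The authors trimmed reads with Trim Galore 0.6.7, quantified them with Salmon 1.6.0 against GRCm39 cDNA and divided gene counts by DESeq2 normalization factors. The deposited values are this normalized signal per gene, and the most common value of each library, 0.687 to 1.49, was taken as the worth of 1 read. Between 46.5 and 62.7% of values up to 20 reads were whole multiples of it within 0.01, so counts were not recovered, and the library sums imply 6699704 to 10799936 reads. The cDNA was amplified and strand was not stated, so overlapping genes cannot be told apart. Of 22042 genes, 2797 carry no symbol.

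Groups came from the sort and condition labels. Refed and fasted means of log2(value + 1) were compared with limma 3.58.1 (R 4.3.3, with the data.table package, version 1.17.8) over 4 group means, with a mean-variance trend, 8 residual degrees of freedom and Benjamini-Hochberg adjustment over all 22042 genes, and genes under 0.05 were called. All adjusted p are from limma. The code was tested on simulated data. Tables and plots used Python 3.11.15, pandas 2.3.3 and matplotlib 3.10.9. Promoter windows came from RefSeq (GRCm38.p6).

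Members and lists were chosen with earlier results of these data known. Named genes are, among called genes with a symbol that is not a Gm or Rik model, a mean of at least 100 over the CCK+ libraries and groups that do not overlap, the 8 with the largest increase and the 8 with the largest decrease in each class. Added to them are up to 4 called genes with the smallest p in each pathway list, all peptide hormones, granins and nutrient receptors, up to 6 genes called for the difference between sorts, and the most abundant gene of each marker list. Mouse letters pair the CCK+ and CCK- libraries of a mouse but not refed with fasted mice. Deviations from group means correlated at r = 0.0773 to 0.124 within a mouse, and at most -0.0184 between mice. Such deviations cancel within a group, so the negative values between mice follow in part from the positive ones within a mouse. Alternatives were other pseudocounts, a filter on low values, other scalings, other variance settings, class limits, a mouse block and leaving out each library. Values of some named genes are not reported here. The droplet data were not used here.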

Additional observations from a re-analysis of the deposited data

Results flagged for a closer look

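The test of the difference between sorts, refed against fasted in CCK+ cells minus the same in CCK- cells, singled out Gvin1, with a log2 difference of -6.55 (limma, adjusted p = 0.000161). Its values were 107, 320.2 and 384 in the fasted and 476, 468 and 499 in the refed CCK+ libraries. In CCK- cells it was listed at 0 in the 3 fasted libraries and had 219, 196 and 159 in the refed ones. Groups of 3 were not tested for single samples that lie far from the others.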

How the results depend on the processing

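All 75 named genes that were called kept their sign in 16 settings, and 13 of them passed in each of the 15 settings other than the unfiltered fit of the 6 CCK+ libraries alone. None of the 561 called genes changed its sign. Leaving out 1 library cannot change a sign where the groups do not overlap, so kept signs are not a test of the calls. Of 55 named genes not called, 4 passed in at least 1 setting. Leaving out each CCK+ library in turn gave 103 to 876 called genes, 74 to 436 higher and 29 to 440 lower. CCK+-enriched genes called higher ranged from 6 to 94, CCK+-enriched genes called lower from 0 to 4, CCK--enriched genes called lower from 2 to 69 and CCK--enriched genes called higher from 1 to 3. Cytosolic chaperones called higher ranged from 10 to 19 and cholesterol genes from 1 to 11. CCK- calls ranged from 79 to 144 without 1 CCK- library. For the difference between sorts, 8 genes were called without mouse A, 0 without B, 0 without C, 2 without D, 4 without E and 3 without F. The causes of these shifts were not tested, beyond the smaller number of libraries.

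Quantile normalization gave 850 called genes (420 lower), 68 CCK--enriched genes lower and 5 higher, 4 CCK+-enriched genes lower, 165 calls in CCK- cells and 2 for the difference between sorts. Equal sums gave 631 higher, 13 CCK--enriched genes higher and 1 CCK+-enriched gene lower, and the filter on low values 5 CCK--enriched genes higher. Without a mean-variance trend there were 119 calls (78 higher and 41 lower), 12 and 0 CCK+-enriched genes higher and lower, 1 and 3 CCK--enriched genes higher and lower, 12 chaperones, 6 cholesterol genes, 66 calls in CCK- cells and 2 for the difference. The 6 CCK+ libraries alone gave 0 calls by limma, 0 higher and 0 lower, hence 0 in each class, 0 chaperones and 0 cholesterol genes, with 3190 genes at an unadjusted p under 0.05. Class limits of 4 and 0.25 gave shares of 1.16% higher and 0% lower, the latter 0 of 25 genes by limma with 2 at an unadjusted p under 0.05. A pseudocount of 10 gave 0 calls for the difference, and so did within-mouse differences (a replicate block), with 0 by limma and 1347 genes at an unadjusted p under 0.05. With mouse as a random block (correlation 0.0962) 576 genes were called, and among named genes Cars alone lost its call.

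Chosen after seeing the data were 2 alternatives of the fit and the marker sums without their most abundant gene, where the EEC sums of fasted and refed libraries overlapped. The 6 CCK+ libraries alone with a filter on low values gave 47 calls (31 higher and 16 lower), 6 and 0 CCK+-enriched genes higher and lower, 1 and 1 CCK--enriched genes higher and lower, 12 chaperones and 3 cholesterol genes. A term for Y-linked transcripts gave 428 calls, 35 CCK+-enriched genes higher, 1 CCK--enriched gene higher and 2 calls for the difference. The cause of each shift was not tested. Depth was taken only from low values and sets no limit that could be given here.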
